A study of Mus musculus with 12 samples.

Results

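The angulin family is made of 3 genes in the mouse, Ildr1, Ildr2 and Lsr, and all 3 were found among the 55536 genes counted in this series by matching their identifiers to GENCODE vM21 gene names. Ildr2 was picked for its higher count in Snx14-KO than WT cerebellum and the lack of such a difference in cortex, so its genotype values are given as a description, without a test. Ildr1 and Lsr were included as the other members of the family and were not picked on their values. RNA was sequenced from whole dissected cerebellum and whole dissected cortex, taken at the age of 1 month from 3 WT and 3 Snx14-KO mice, each mouse giving both tissues by its numbered label, which makes 12 libraries in 4 groups. The Snx14-KO mice carry a frameshift deletion in Snx14, made with CRISPR, in every cell of the body, were crossed to C57BL/6J, and were compared with WT mice. Both sexes were used in the study, and all cell types of the tissue were pooled in each library.

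Angulins are single-pass membrane proteins with an immunoglobulin-like domain that mark the points where 3 epithelial or endothelial cells meet. There they recruit tricellulin (Marveld2), which seals the tricellular junction. Lsr, the lipolysis-stimulated lipoprotein receptor, was first described for the uptake of lipoproteins by liver cells, and in brain it lies at tricellular contacts of endothelial cells and contributes to the blood-brain barrier. Ildr1 is needed for hearing. Ildr2 has been linked to liver lipid handling and diabetes in mice, and it also acts as an immune checkpoint protein related to the B7 family of costimulatory ligands.

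Part of the exon sequence of Ildr2 and Lsr is also exon sequence of antisense genes. The counting ignored the strand and gave a read pair to every gene it touched, so such read pairs were counted for both genes and the genes cannot be told apart there. Ildr2 (ENSMUSG00000040612.13) is a plus-strand gene of chromosome 1, between positions 166254139 and 166316823 (GRCm38), and 911 of its 8251 exon bases (11.04%) lie within the single exon of 5330438I03Rik, an antisense gene on the minus strand. All 911 bases are coding sequence of Ildr2 and make up exons 8 (214 bases) and 9 (697 bases) of the 10 exons of transcript Ildr2-201. Exon 8 is printed here as the stretch where an Ildr2 read pair and an antisense read pair are the same to this counting. Capitals mark the exon at chr1:166307720-166307933, plus strand, and lower case the 15 transcript bases on either side, from GENCODE vM21.
Ildr2 exon 8: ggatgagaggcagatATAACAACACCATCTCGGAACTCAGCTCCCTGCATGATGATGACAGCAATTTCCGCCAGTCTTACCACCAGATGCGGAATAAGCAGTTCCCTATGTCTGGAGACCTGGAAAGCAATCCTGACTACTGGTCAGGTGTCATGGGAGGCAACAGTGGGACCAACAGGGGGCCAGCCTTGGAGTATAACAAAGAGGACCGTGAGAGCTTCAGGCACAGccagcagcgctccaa

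Lsr (ENSMUSG00000001247.16) is a minus-strand gene of chromosome 7, between positions 30957770 and 30973464. Of its 2172 exon bases, 44.7% are also exon sequence of 2 antisense genes, 946 bases of Gm4673 and 25 bases of Gm17077. The 25 bases shared with Gm17077 fall on both sides of a splice junction of Lsr, at chr7:30957989-30958004 and chr7:30957893-30957901, and are adjacent in the spliced transcript. They are shown in capitals in Lsr-201 with 15 bases on either side, since Gm17077, which took more read pairs than Lsr in every library, shares only these bases with it.
Lsr shared stretch: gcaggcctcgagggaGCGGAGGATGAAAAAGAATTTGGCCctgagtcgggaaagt

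Ildr1 (ENSMUSG00000022900.14), a plus-strand gene of chromosome 16 between positions 36693978 and 36726804, shares none of its 4296 exon bases with another gene. The members hardly share sequence with each other. The longest identical stretch between Ildr2 and Lsr transcripts was 15 bases, and between Ildr1 and Lsr transcripts 14 bases. Between Ildr1 and Ildr2 it was 34 bases of a CA repeat, on either strand.

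The counts on genes summed to between 16672589 and 19887427 per library. Snx14 itself had 1102 to 1248 read pairs per WT cerebellum and 198 to 217 per Snx14-KO cerebellum, and 1008 to 1051 per WT cortex against 129 to 145 per Snx14-KO cortex, so the Snx14 counts followed the labels in all 12 libraries. Granule cell and Purkinje cell markers were higher in cerebellum (8 of 8 genes called in each list) and forebrain neuron markers higher in cortex (8 of 8), where 20.5% of all genes tested were called higher in cerebellum and 22% lower. Snx14-KO cerebella 1 and 3 stood apart from the other 4 cerebella in most genes of a list for midbrain and thalamus neurons. Tal2, Gbx2, Lef1 and Prkcd of that list did not show this. Tcf7l2 and Shox2, named here after their values were seen, are examples of genes that did. Tcf7l2 was at 62.4 and 64.1 CPM (counts scaled by library size with edgeR's TMM method) in these libraries, against 6.56 in Snx14-KO cerebellum 2 and 4.72 to 8.08 in the WT cerebella. Shox2 was at 16.8 and 13.3 CPM, against 0.0551 in Snx14-KO cerebellum 2 and at most 0.115 in WT. The genotype values of the 3 members in cerebellum and their tissue values are therefore given also without libraries 1 and 3.

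Ildr2 had a low level in cerebellum and a high one in cortex, and its level in Snx14-KO cerebella lay between those of WT cerebella and cortices. In WT cerebella it was at 8.89, 12.6 and 12.1 CPM, and in Snx14-KO cerebella at 31.4, 22.5 and 31.6 CPM. All 3 Snx14-KO cerebella were above all 3 WT cerebella, and Snx14-KO cerebellum 2 was the lowest of the 3. The group means were 11.2 ± 2.00 CPM (SD, n = 3) in WT and 28.5 ± 5.18 CPM (SD, n = 3) in Snx14-KO, a ratio of 2.55 and a fitted log2 fold change of 1.36 (SE 0.177). Among the 18201 genes tested in cerebellum, 6.22% had all 3 Snx14-KO libraries above all 3 WT libraries, and 0.00549% passed the thresholds of edgeR (adjusted p under 0.05 and absolute log2 fold change over 0.5), against 0.901% with DESeq2. Since Ildr2 was picked on this contrast, nothing is read from its place among them. In whole tissue, more cells of a type and more RNA per cell cannot be told apart.

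In cortex, Ildr2 was at 165, 152 and 175 CPM in WT and at 162, 201 and 160 CPM in Snx14-KO mice. The groups overlapped, and only Snx14-KO cortex 2 was above the WT range. The means were 164 ± 11.4 CPM (SD, n = 3) and 174 ± 23.4 CPM (SD, n = 3), with a log2 fold change of 0.091 (SE 0.0951). Without Snx14-KO cortex 2 it was -0.027 (SE 0.0756). The percentage of genes called in cortex was 0.00548% with edgeR and 0.053% with DESeq2. The difference between the genotype effects in cerebellum and cortex was 1.26 on the log2 scale (SE 0.202), in a comparison where edgeR called 0% and DESeq2 0.189% of genes.

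**Figure D1:**
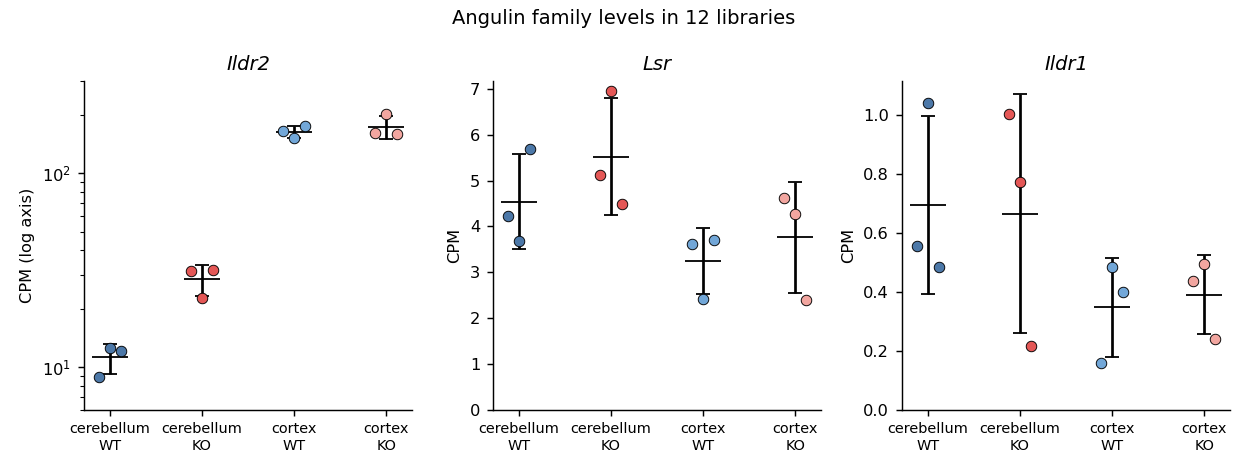
Level of Ildr2, Lsr and Ildr1 in CPM by tissue and genotype, with 1 point per library, a horizontal bar for the mean and error bars for the SD (n = 3); the axis is logarithmic for Ildr2 and starts at 0 for the others. Ildr2 separates the 4 cerebellum and cortex groups except WT from Snx14-KO cortex, while the genotypes overlap for Lsr and Ildr1.

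The genotype value of Ildr2 in cerebellum was smaller without the libraries that stood apart. Snx14-KO cerebellum 1 was at 2.81 times the WT mean, Snx14-KO cerebellum 3 at 2.83 times and Snx14-KO cerebellum 2 at 2.02 times. With Snx14-KO cerebellum 2 as the one Snx14-KO library, assumed to vary as the WT libraries do, the log2 fold change was 1.02 (SE 0.216). The difference of the genotype effects between the tissues was then 0.92 (SE 0.213). The summed level of the 15 midbrain and thalamus genes, a list made after some of their values were seen, was 160 to 178 CPM in WT cerebella, 346 and 329 CPM in Snx14-KO cerebella 1 and 3, and 156 CPM in Snx14-KO cerebellum 2. Prkcd alone made up most of the WT sum. It was at 120 to 133 CPM in WT cerebella, 123 and 98.5 CPM in Snx14-KO cerebella 1 and 3, and 118 CPM in Snx14-KO cerebellum 2. The other genes of the list together thus rose by more than this sum shows. Of these 15 genes, 11 were higher in Snx14-KO cerebella 1 and 3 than in the other 4 cerebella. Gata2 was so only narrowly, at 2.58 and 2.76 CPM against at most 2.48 CPM. The share of all genes with this order was not determined, so nothing is read from the count.

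Markers of other cell types are given as summed levels in the same cerebella. Of all genes tested there, 5.78% were higher in Snx14-KO at an unadjusted p under 0.05, DESeq2 called 0.901% and 6.22% had all Snx14-KO above all WT libraries. The 12 meningeal fibroblast markers summed to 178 to 351 CPM in WT cerebella and to 486 to 503 CPM in Snx14-KO cerebella, library 2 included, and 12 of 12 had a higher value in Snx14-KO (0 called by edgeR, 10 at an unadjusted p under 0.05, 9 called by DESeq2). In cortex the highest meningeal sum, 403 CPM, was that of Snx14-KO cortex 2, the cortex with the highest Ildr2, and the other 5 cortices were at 110 to 157 CPM. Other lists also had an extreme sum in Snx14-KO cortex 2. It was the highest cortex for ependymal (43.0 CPM), microglia (567 CPM) and endothelial markers (222 CPM), and the lowest for oligodendrocyte markers (5742 CPM). Microglia markers summed to 568 CPM in Snx14-KO cerebellum 3 and to 198 to 252 CPM in the other 5 cerebella, with 10 of 10 higher in Snx14-KO (0 called by edgeR or DESeq2, 6 at an unadjusted p under 0.05). The 8 astrocyte markers summed to 6739 to 7539 CPM in WT and 7619 to 8605 CPM in Snx14-KO cerebella, with 8 of 8 higher in Snx14-KO (0 called by edgeR or DESeq2, 5 at an unadjusted p under 0.05). The 6 oligodendrocyte precursor markers summed to 119 to 146 CPM and 149 to 204 CPM, with 6 of 6 higher (0 called by edgeR, 3 at an unadjusted p under 0.05, 1 called by DESeq2). For both lists all 3 Snx14-KO cerebella were above all 3 WT cerebella, as for Ildr2 and the meningeal markers. The 8 forebrain neuron markers did not follow Ildr2. They summed to 64.1 to 73.4 CPM in WT and 68.2 to 71.6 CPM in Snx14-KO cerebella, against 798 to 875 CPM in WT cortex. The part of the midbrain, thalamus, meningeal, microglial, astrocyte and oligodendrocyte precursor genes in the Ildr2 result was not tested.

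**Figure D2:**
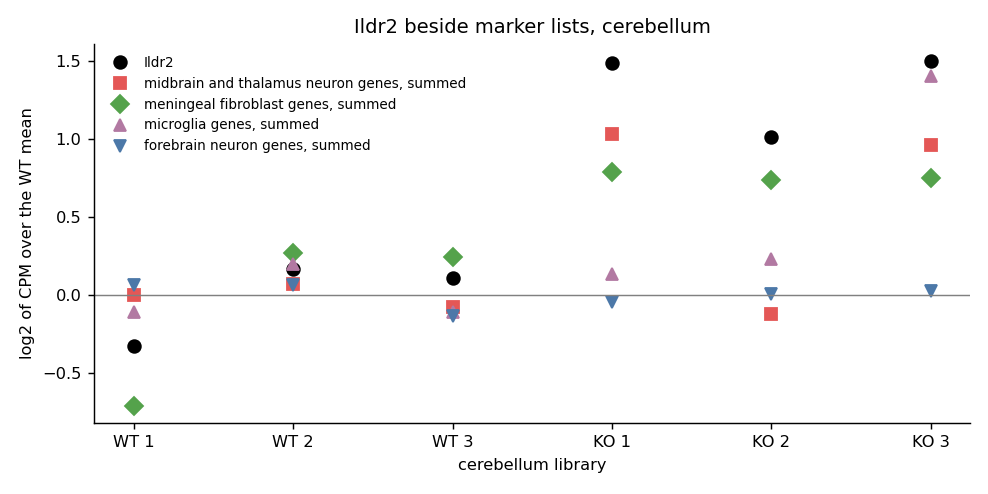
Level of Ildr2 and summed level of 4 marker lists in each cerebellum, as log2 of CPM over the mean of the 3 WT cerebella. The midbrain and thalamus sum, most of which is Prkcd in WT, is high in Snx14-KO 1 and 3. It is at the WT level in Snx14-KO 2, where Ildr2 is at 2.02 times the WT mean, and the forebrain neuron genes stay near 0 in all 6 libraries.

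The count of the antisense gene 5330438I03Rik rose and fell with that of Ildr2, which holds 32.0% of its exon bases. Read pairs on these bases were counted for both genes, so the counts are not independent and nothing is read from their likeness. The count of 5330438I03Rik was 20 to 23 read pairs per WT cerebellum, 34 to 78 per Snx14-KO cerebellum, 227 to 257 per WT cortex and 213 to 398 per Snx14-KO cortex. This was 7.92% to 14.4% of the count of Ildr2 in the same library. Subtracting it from the count of Ildr2, which gives a lower bound on read pairs of Ildr2 alone, left 137 to 205 read pairs per WT cerebellum and 375 to 579 per Snx14-KO cerebellum. The log2 fold change was then 1.37 (SE 0.186) in cerebellum and 0.073 (SE 0.0898) in cortex. Both values moved by less than their SE.

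**Figure D3:**
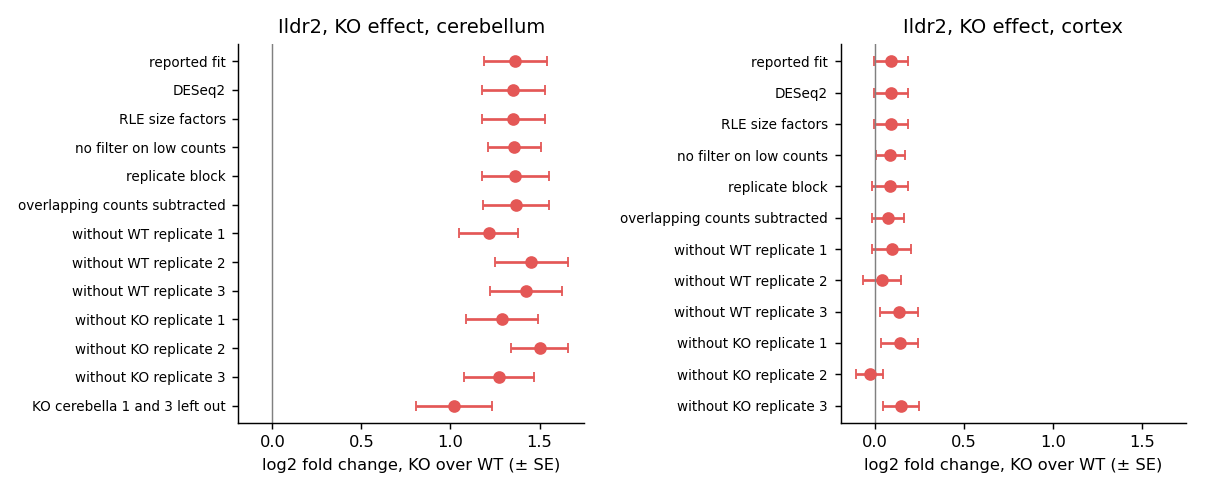
Log2 fold change of Ildr2, Snx14-KO over WT, in cerebellum (left) and cortex (right) under each setting, with bars for the SE. The cerebellum value stays between 1.02 and 1.50 and the cortex value between -0.027 and 0.15.

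The brain regions were compared over all 12 libraries, averaged over genotypes, which in this balanced design is orthogonal to the contrasts on which Ildr2 was picked. Ildr2 was lower in cerebellum than in cortex by 3.24 on the log2 scale (SE 0.106, edgeR adjusted p = 1.80e-12), and every cerebellum was below every cortex, as for 24.5% of all genes tested. Of 19380 genes, 22% were called lower in cerebellum, 20.5% higher, and 2.87% had a value at or below that of Ildr2. With Snx14-KO cerebella 1 and 3 left out, the difference was -3.41 (SE 0.130), given without a test because the groups are then unequal and the contrast is no longer orthogonal to the one on which Ildr2 was picked. The mean in WT cortex was 14.7 times that in WT cerebellum, and the mean in Snx14-KO cortex 6.12 times that in Snx14-KO cerebellum. The order of levels was thus WT cerebellum, Snx14-KO cerebellum, WT cortex and Snx14-KO cortex, of which the cortex groups did not differ beyond their spread.

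Lsr was low in every group and its genotypes overlapped in both tissues. It was at 4.23, 3.69 and 5.69 CPM in WT cerebella and at 5.12, 6.95 and 4.50 CPM in Snx14-KO cerebella. In cortex it was at 3.61, 2.42 and 3.70 CPM in WT and at 4.63, 4.28 and 2.38 CPM in Snx14-KO mice. The highest cerebellum was Snx14-KO 2 and the lowest cortex Snx14-KO 3, and neither group lay apart from its WT group. By edgeR's quasi-likelihood test the log2 fold change was 0.29 (SE 0.234, adjusted p = 0.864) in cerebellum and 0.22 (SE 0.275, adjusted p = 0.996) in cortex, and the 2 differed by 0.064 (SE 0.388, adjusted p = 1.000). Single libraries moved these values, to 0.088 without Snx14-KO cerebellum 2 and 0.49 without WT cerebellum 3, and to 0.043 without WT cortex 2 or Snx14-KO cortex 1 and 0.46 without Snx14-KO cortex 3, none of them called. Between the tissues, Lsr was higher in cerebellum by 0.52 (SE 0.194, edgeR adjusted p = 0.0289), close to the fold threshold. Leaving out WT mouse 2, WT mouse 3, Snx14-KO mouse 2 or Snx14-KO mouse 3 ended this call, by the adjusted p or by the fold threshold, with values of 0.49, 0.47, 0.47 and 0.46. Without Snx14-KO cerebella 1 and 3 the genotype value in cerebellum was 0.62 (SE 0.297, edgeR adjusted p = 1.000) and the tissue value 0.68 (SE 0.225, edgeR adjusted p = 0.0183).

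The count of Lsr rests on 40 to 126 read pairs per library and cannot be separated from its antisense partners. Gm4673 had 168% to 293% and Gm17077 414% to 978% of the count of Lsr in the same library, so that subtraction would leave 0 in all 12 libraries, and no useful lower bound could be set. Both had a higher value in cerebellum than in cortex, as Lsr did, Gm4673 by 0.36 (SE 0.134, edgeR adjusted p = 0.0285) and Gm17077 by 0.38 (SE 0.101, edgeR adjusted p = 0.00384), below the fold threshold, and their part in the tissue difference of Lsr was not tested. Only 21.2% of the exon bases of Gm4673 and 8.96% of those of Gm17077 are shared with Lsr. The 12 brain endothelial markers, the cells where Lsr protein lies, summed to 192 to 222 CPM in WT and 206 to 258 CPM in Snx14-KO cerebella, with 10 of 12 higher in Snx14-KO. In cortex they summed to 163 to 194 CPM in WT and 193 to 222 CPM in Snx14-KO, with 12 of 12 higher, and edgeR and DESeq2 called 0 of them in either tissue (3 higher at an unadjusted p under 0.05 in each, as were 5.78% of all genes in cerebellum and 2.24% in cortex). The part of endothelial cells in the Lsr values was not tested.

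Ildr1 was near the limit of detection. It had 9 to 18 read pairs per WT cerebellum, 4 to 21 per Snx14-KO cerebellum, 3 to 9 per WT cortex and 4 to 9 per Snx14-KO cortex, which is at most 1.04 CPM. The log2 fold change in cerebellum was -0.030 (SE 0.559, edgeR adjusted p = 0.997), and this SE bounds its change only loosely. In cortex it did not pass the filter on low counts. Averaged over genotypes, the log2 fold change of cerebellum over cortex was 0.87 (SE 0.411, edgeR adjusted p = 0.0741), which missed the threshold, and without Snx14-KO mouse 3 it was 0.95 (SE 0.382, edgeR adjusted p = 0.0465), which passed it. Without Snx14-KO cerebella 1 and 3 the genotype value in cerebellum was 0.17 (SE 0.700, edgeR adjusted p = 1.000) and the tissue value 0.97 (SE 0.451, edgeR adjusted p = 0.0797).

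Set side by side per kilobase of exon, the mean of Lsr was above that of Ildr2 in WT cerebellum, and the mean of Ildr2 above that of Lsr in the other 3 groups. In WT cerebellum Lsr was at 2.09 ± 0.477 CPM per kilobase (SD, n = 3), Ildr2 at 1.36 ± 0.242 and Ildr1 at 0.161 ± 0.0703. The level of Lsr includes read pairs shared with its antisense partners. In Snx14-KO cerebellum Ildr2 was at 3.46 ± 0.628 and Lsr at 2.54 ± 0.587 CPM per kilobase, with ranges that overlapped. In WT cortex Ildr2, at 19.9 ± 1.38 CPM per kilobase, was at 13.3 times the level of Lsr, and in Snx14-KO cortex at 12.2 times.

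Genes that work with the angulins were described with 4 lists. None of the 17 tight junction scaffold genes tested in cerebellum was called between genotypes by edgeR or DESeq2, and 2 were higher and 2 lower at an unadjusted p under 0.05, where all genes had 5.78% higher and 2.37% lower. The median log2 fold change of the list was 0.040, against -0.00062 for all genes. None of the 9 claudins tested (median -0.063), 13 lipoprotein receptor genes (median 0.11) or 6 B7 family genes (median 0.14) was called by either tool, with 0, 3 and 0 of them at an unadjusted p under 0.05. In cortex, 0 of 15 scaffold genes, 7 claudins, 13 lipoprotein receptor genes and 6 B7 genes were called by edgeR and none by DESeq2, and 1 claudin was lower at an unadjusted p under 0.05, as were 2.26% of all genes. For the difference of the genotype effects edgeR and DESeq2 called 0 of 17, 10, 14 and 6 genes tested, and 1 lipoprotein receptor gene and 1 B7 gene were higher in that difference at an unadjusted p under 0.05 by edgeR, as were 3.97% of all genes.

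Between tissues, 9 of 17 scaffold genes were higher and 1 lower in cerebellum, where 20.5% of all genes were called higher and 22% lower, with a median log2 fold change of 0.98 against 0.021 for all genes. Patj, a polarity scaffold, was higher by 4.30 (SE 0.107), and Marveld2, the tricellulin that angulins recruit, by 3.01 (SE 0.185). Tjp3, a zonula occludens protein, was higher by 2.74 (SE 0.438) and Cgnl1, paracingulin, by 2.11 (SE 0.186). Marveld2 was thus higher in the tissue where Ildr2 was lower, at 9.34 ± 2.26 CPM (SD, n = 3) in WT cerebellum and 0.895 ± 0.279 CPM (SD, n = 3) in WT cortex. Choroid plexus markers, of cells that also build tight junctions, summed to 84.3 to 7472 CPM in WT cerebella, 979 to 3233 CPM in Snx14-KO cerebella and at most 141 CPM in cortex, and their part in these differences was not tested.

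Of 10 claudins tested between tissues, 3 were higher and 1 lower in cerebellum, against 20.5% and 22% of all genes, and without Snx14-KO cerebella 1 and 3 a total of 7 were called. Cldn2, a channel-forming claudin of choroid plexus, was higher by 5.51 (SE 0.774) and ranged from 1.33 to 31.0 CPM within the WT cerebella, where the choroid plexus sum also varied. Cldn1 was higher by 1.24 (SE 0.505) and Cldn14 by 0.80 (SE 0.201), while Cldn22 was lower (log2 fold change -3.30, SE 0.555). Cldn1 ranged from 0.278 to 15.4 CPM within the WT cerebella, and DESeq2 did not call it (adjusted p = 0.108). Its edgeR call was also lost with the animal as a block (0.96, adjusted p = 0.109) and without any single mouse other than WT mouse 1 (0.98 to 1.33). Without WT mouse 3, Cldn22 was at -5.12. Of 14 lipoprotein receptor genes, 3 were higher and 5 lower, against the same 20.5% and 22%. Lpl, lipoprotein lipase, was lower in cerebellum (log2 fold change -1.57, SE 0.481), and without Snx14-KO mouse 3, whose cerebellum was at 27.1 CPM and above every cortex, the value was -2.50 (SE 0.285). Scarb1, the HDL receptor, was lower too (-1.56, SE 0.0985). Of 6 B7 genes, 1 was higher and 3 lower. Icosl was higher by 1.44 (SE 0.170), and Vsir (-1.01, SE 0.0911), Cd86 (-0.86, SE 0.254) and Cd276 (-0.72, SE 0.107) were lower. Each tissue difference named here passed edgeR's thresholds, and each but that of Cldn1 had a DESeq2 adjusted p under 0.05 and kept its call with the animal as a block. Without WT mouse 3, Cd86 lost its edgeR call (-0.66, adjusted p = 0.0533).

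**Figure D4:**
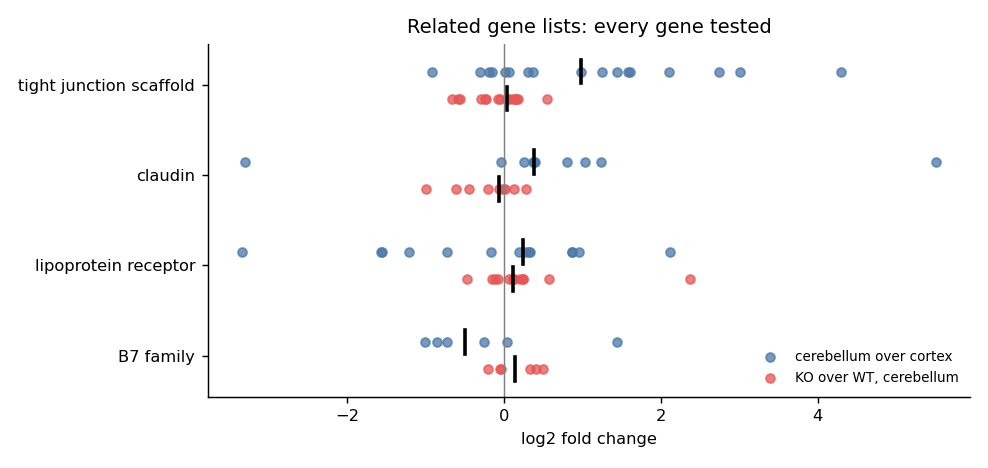
Log2 fold change of every gene tested in the 4 lists, cerebellum over cortex averaged over genotypes (blue) and Snx14-KO over WT in cerebellum (red), with a black bar at each list's median. The tissue differences reach 5.51 and spread more widely than the genotype differences, of which none was called.

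The tested genes nearest to each member on the chromosome were compared between genotypes in cerebellum. Cd247, Pou2f1, Gm15853 and Tada1, nearest to Ildr2, had log2 fold changes between -0.10 and 0.15. Usf2, 967 bases from Lsr, was at -0.21 (SE 0.122, edgeR adjusted p = 0.763), Gm44662 at -0.50, Fxyd5 at 1.03 (SE 0.297, edgeR adjusted p = 0.359) and Fxyd7 at 0.53. Around Ildr1, Csta1, Cd86, Slc15a2 and Eaf2 were between -0.30 and 0.40. Neither edgeR nor DESeq2 called any of the 12, and 2, Fxyd5 and Fxyd7, were higher at an unadjusted p under 0.05 by edgeR, as were 5.78% of all genes.

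The genes whose level followed Ildr2 most closely within tissues were Alcam, Isyna1, Npy1r, Kcnt2 and Slc7a11. The Pearson correlation of log2(CPM + 1), as the deviation from the mean of the tissue, was 0.94 for the first 4 and 0.93 for Slc7a11 over 12 libraries, among 19379 genes. These values share the libraries in which Ildr2 was picked. Alcam, a cell adhesion molecule of the immunoglobulin superfamily, was at 35.7 to 42.2 CPM in WT cerebella and at 71.1, 61.5 and 88.0 CPM in Snx14-KO cerebella. Isyna1, which makes inositol phosphate from glucose 6-phosphate, was at 19.8 to 22.0 CPM in WT and at 33.5, 30.4 and 34.8 CPM in Snx14-KO cerebella. Npy1r, a receptor of neuropeptide Y, was at 0.389 to 0.981 CPM in WT and at 4.40, 1.93 and 6.01 CPM in Snx14-KO cerebella. In all 3 genes Snx14-KO cerebellum 2 was the lowest of the Snx14-KO cerebella and above the WT range. Within the 6 cortices the correlation was 0.47 for Alcam, 0.74 for Isyna1, 0.22 for Npy1r, -0.42 for Kcnt2 and 0.64 for Slc7a11.

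For Lsr the closest genes were Tie1 (0.88), Tbx3 (0.88), Glis2 (0.87), Wnt5b (0.86) and Phtf1 (0.85). Tie1, a receptor tyrosine kinase of endothelial cells and one of the endothelial markers above, was highest in the same cerebellum as Lsr, Snx14-KO 2, at 7.99 CPM. In cortex it was highest in Snx14-KO 2, at 6.97 CPM, and Lsr in Snx14-KO 1. The correlation between Ildr2 and Lsr was 0.29, that between Ildr1 and Lsr 0.071 and that between Ildr1 and Ildr2 -0.041.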

How the data were processed

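RNA was prepared from dissected tissue with TRIzol and sequenced as read pairs. The authors mapped the reads to GRCm38 with STAR, counted them with featureCounts (Subread 2.0.1), unstranded and with pairs given to every gene they overlapped, and deposited the counts without normalization. Gene totals ranged from 16672589 to 19887427. Symbols were matched through GENCODE vM21 for 55450 of 55536 genes, and rows that name no gene were left out (0.0506% to 0.0632% of counts per library). Counts were filtered with filterByExpr, normalized with TMM and tested with edgeR 4.0.16 (quasi-likelihood) in R 4.3.3, with Benjamini-Hochberg adjustment over all genes tested. The call needed an adjusted p under 0.05 together with a log2 fold change beyond 0.5 in either direction, and for the difference of genotype effects between tissues the adjusted p alone. DESeq2 1.42.0, RLE size factors, no filter, a replicate block, subtraction of antisense counts and leaving out each library or mouse were alternatives. Leaving out Snx14-KO cerebella 1 and 3 was added after seeing the data. CPM used TMM over 12 libraries. The genotype test in cerebellum and the tissue test were checked on simulated data. Both tissues of a numbered mouse come from the same animal by the labels, and their deviations correlated at 0.018 to 0.34. Nothing in the labels ties a WT mouse to a Snx14-KO mouse.

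The members and gene lists were chosen with earlier results of these data known. The genes named were the members, Snx14, genes sharing exon bases with a member, the 2 nearest tested genes on each side, list genes called between genotypes, the 4 largest called tissue differences per list (some are not reported here), and the 5 genes most correlated with Ildr2 and with Lsr. Tcf7l2, Shox2 and the other midbrain and thalamus genes named fall outside this rule and were chosen after their values were seen. Lists held tight junction scaffold, claudin, lipoprotein receptor and B7 family genes and markers of 13 cell types or regions, of which the midbrain and thalamus list was made after values were seen.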

Additional observations from a re-analysis of the deposited data

How the results depend on the processing

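The values of Ildr2, Lsr and Ildr1 kept their direction under DESeq2, RLE size factors, no filter on low counts and the replicate block, and no call of a member changed under them. The numbers shared by WT and Snx14-KO mice did not pair the samples (correlations of -0.092 to 0.081), and with them as a block Ildr2 was at 1.36 in cerebellum and 0.084 in cortex. With the animal as a block the difference of the genotype effects was 1.27 for Ildr2, and the tissue difference -3.25 for Ildr2 and 0.53 for Lsr. Without Snx14-KO cerebella 1 and 3 (added after seeing the data), Ildr2 was at 1.02 in cerebellum and 0.92 in the difference of genotype effects, and Ildr1 reversed to 0.17 in cerebellum. Leaving out one replicate at a time, Ildr2 ranged from 1.22 to 1.50 in cerebellum, from -0.027 to 0.15 in cortex (-0.027 without Snx14-KO 2) and from 1.11 to 1.52 in the difference, with the last value without Snx14-KO mouse 2. Ildr1 ranged from -0.47 to 0.37 in cerebellum, with 0.37 without WT 2 and 0.37 without Snx14-KO 3, and from 0.69 to 1.03 between tissues, passing the threshold without Snx14-KO mouse 3 (0.95). Lsr ranged from 0.088 to 0.49 in cerebellum, from 0.043 to 0.46 in cortex, from -0.077 to 0.29 in the difference of genotype effects (-0.077 without WT mouse 1, -0.027 without Snx14-KO mouse 2 and -0.051 without Snx14-KO mouse 3) and from 0.46 to 0.63 between tissues.

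Counts of genes called between genotypes depended strongly on the setting. In cerebellum edgeR called 1 gene, DESeq2 179 and edgeR without a filter 347, and leaving out one library gave 1 to 254, the highest without Snx14-KO 2. In cortex these were 1, 7, 149 and 1 to 2. For the difference of genotype effects they were 0, 36, 418 and 0 to 249, the highest without Snx14-KO mouse 2. Between tissues the claudin list had 4 genes called, 7 with no filter or without Snx14-KO cerebella 1 and 3, 3 with the animal as a block and 3 to 5 without one mouse. Without the filter, 1 lipoprotein receptor gene was called in cerebellum and 1 in the difference. The causes were not tested. Ildr1 rests on 3 to 21 read pairs per library and Lsr on 40 to 126.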

Other observations

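Marker lists not set beside a member are given here as summed CPM. Between genotypes in cerebellum, the choroid plexus, oligodendrocyte, Purkinje cell, granule cell and blood cell lists had a lower value in Snx14-KO for every gene tested (10, 10, 8, 8 and 5 genes), and edgeR called none of them, with 0, 0, 1, 4 and 0 at an unadjusted p under 0.05 and 1 granule cell gene called by DESeq2. Of all genes tested, 2.37% were lower at an unadjusted p under 0.05, and DESeq2 called 0.901%. Granule cell genes summed to 3126 to 3696 CPM in WT and 2531 to 3310 CPM in Snx14-KO cerebella. Purkinje cell genes summed to 10918 to 12223 CPM and 8552 to 11215 CPM. Oligodendrocyte genes summed to 11377 to 14834 CPM and 11607 to 13415 CPM, and blood cell genes to 168 to 415 CPM and 119 to 309 CPM. Of 8 ependymal genes, 3 were higher and 5 lower, at 54.1 to 67.9 CPM against 40.1 to 99.4 CPM, with 0 called by either tool and 0 at an unadjusted p under 0.05.

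Lpl, lipoprotein lipase, ranged from 0.966 to 4.10 CPM in WT cerebella and from 2.98 to 27.1 CPM in Snx14-KO cerebella. The highest value was that of Snx14-KO cerebellum 3, the library with the highest microglia sum, and the other Snx14-KO cerebella lay within the WT range. edgeR and DESeq2 called no difference between genotypes.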
